A study of Homo sapiens with 4 samples.

Results

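The genes described here are 42 that encode lysosomal hydrolases, their cofactors and proteins of the lysosomal membrane, read in BJ cells, an established line of human skin fibroblasts, after exposure to DMSO or to Dox. They were taken by name: a row entered when the symbol in its gene identifier was on the list of 42, and all 42 were found among 58870 listed genes. By function they fall into 6 membrane proteins, 11 proteases, 11 glycosidases, 5 sulfatases, 8 proteins of lipid handling and 1 phosphatase. The lysosome is an acidic organelle in which hydrolases break down proteins, glycans, glycolipids and other material delivered by endocytosis and autophagy. Most of its soluble enzymes reach it through a mannose 6-phosphate tag added in the Golgi, and inherited loss of single enzymes causes storage diseases. Fibroblasts are a common cell in which these enzymes are assayed, and a raised lysosomal beta-galactosidase activity, the product of GLB1, is a widely used stain for senescent cells.

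The control group was 2 libraries from cells given the solvent DMSO, titled as young. The Dox group was 2 libraries from cells given 250 nM of a compound written only as Dox in the labels, titled as aged. Both exposures lasted 24 hours, and the series design puts 10 days of further culture after them. Total RNA was used in both groups, and no genetic change is named for either. Whether the replicates came from separate cultures is not stated, so a p-value reflects only how far these libraries spread, which may be technical, and 2 against 2 libraries cannot give an exact permutation p below 0.333.

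Expected counts, RSEM's estimates of reads per gene, summed to between 42744729 and 47798920 per library. CDKN1A, the kinase inhibitor used here as a check of the treatment label, was at 467 and 466 CPM (counts scaled to library size) under DMSO and 848 and 991 CPM under Dox. LMNB1, the B-type lamin, was at 6.16 and 6.85 CPM under DMSO and 1.85 and 1.28 CPM under Dox. All 10 fibroblast markers were present in every library. In Dox 4 of them (40%) rose and 3 (30%) fell, beside 16.5 and 13.8% of all tested genes. Their log2 fold changes ran from -1.05 for PDGFRB to 0.43 for LUM, and their part in the lysosomal results was not tested. None of the 12 macrophage markers reached 1 TPM (transcripts scaled by length and library total) in any library. Protein-coding nuclear genes held only 8.93 to 14.8% of that TPM, and CTSS, 1 of the 42 genes, did not reach 1 TPM either. The Dox libraries stood further apart from each other than the control libraries did: a chi-square of their counts, per degree of freedom, came to 60.5 for the Dox pair and 2.40 for the control pair. In bulk RNA, fewer cells of a type and less RNA per cell cannot be told apart.

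All 42 genes had enough counts to be tested. In edgeR's quasi-likelihood test, with p-values adjusted by Benjamini-Hochberg over all genes, 20 of them (47.6%) rose in Dox, 2 (4.76%) fell and 20 did not pass an adjusted p of 0.05. Of all 16749 tested genes, 16.5% rose and 13.8% fell. Among the 2977 protein-coding nuclear genes at or above the median abundance of the 42 (48.3 CPM), 23.4% rose and 17.5% fell. Both Dox libraries lay above both control libraries for 30 of the 42 and below them for 5, and the groups overlapped for the other 7, against 34.6% and 34.5% of all tested genes above and below. The median log2 fold change of the 42 was 0.31, and that of all tested genes was 0.00 after rounding. The genes that rose by at least 1 on the log2 scale were the membrane protein CD68, the proteases CTSB, CTSK, CTSS and TPP1, the fucosidase FUCA1, and GM2A and SMPD1 of lipid handling. CTSF and GUSB were the 2 that fell. The count of risers depended on the test and on single libraries: it was 4 with limma on log2(TPM + 1) (CD68, CTSS, FUCA1 and GM2A), 11 against a 1.5-fold threshold, 13 without control replicate 1, 14 without control replicate 2, 31 without Dox replicate 1 and 27 without Dox replicate 2. The count of fallers in these settings was 0, 0, 1, 1, 4 and 9. Of all genes tested in the same settings, 3.56, 4.70, 8.62, 7.83, 26 and 27.0% rose and 1.18, 2.87, 6.23, 5.73, 26.7 and 29.1% fell.

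**Figure D1:**
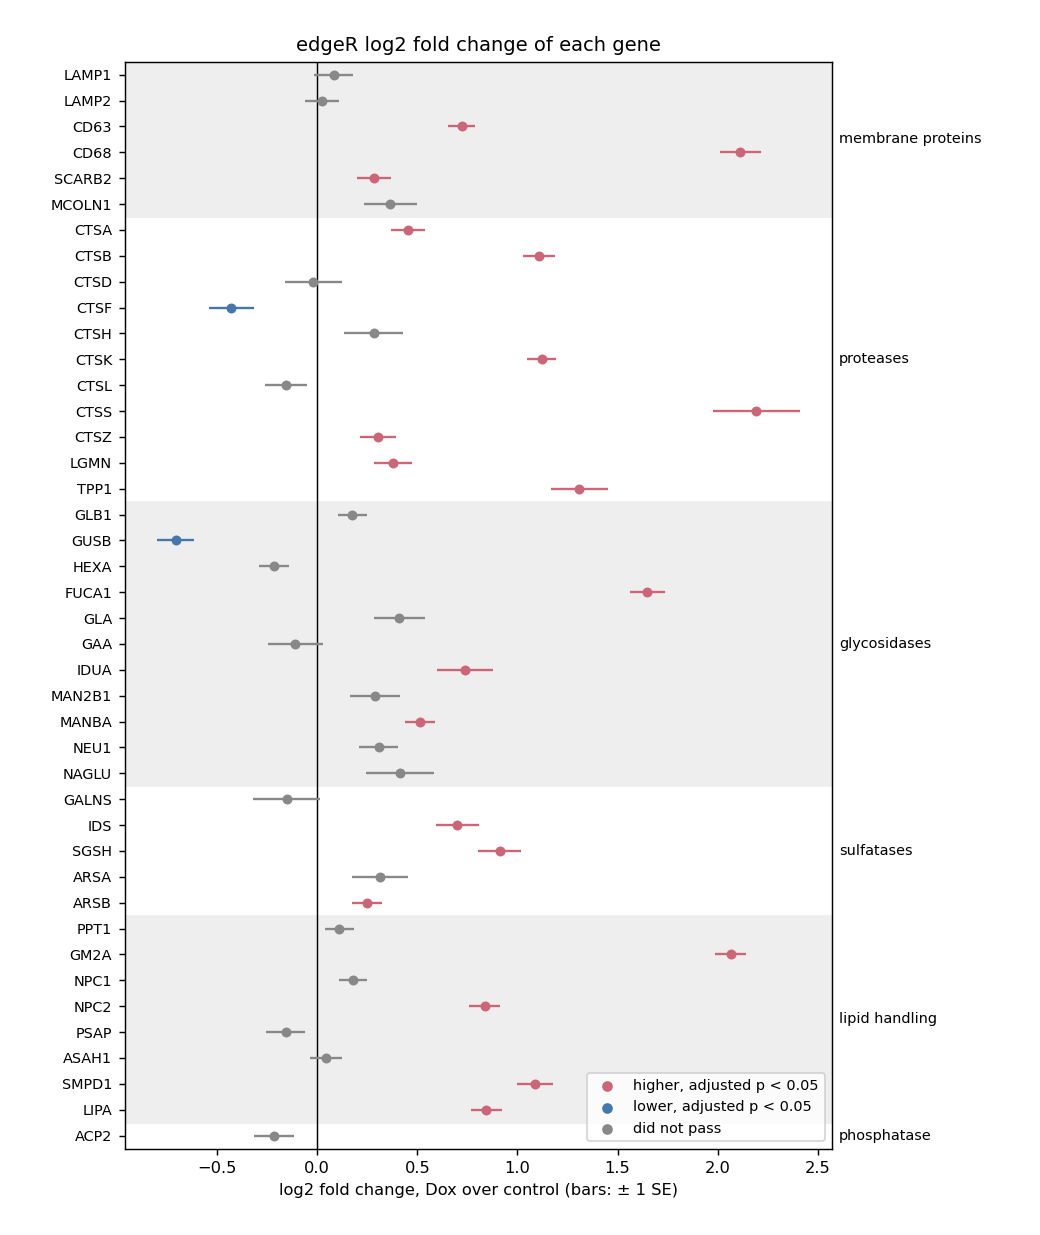
Fitted log2 fold change of Dox over control for each of the 42 genes (x axis, edgeR, bars ± 1 SE, 2 libraries per group), grouped by class on the y axis. CTSS, CD68, GM2A and FUCA1 lie farthest to the right, between 1.65 and 2.19, and GUSB (-0.71) and CTSF (-0.43) lie farthest to the left.

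Genes of this network are known for a palindromic element in their promoters to which TFEB, a transcription factor of lysosome formation, and its relatives bind. The core of that element, CACGTG, was looked up as letters in RefSeq promoter windows (GRCh38.p14, 250 bases before to 50 after each transcription start), where 30 of the 42 genes had an entry. It occurred in at least 1 window of 10 of the 30 genes, against 8.77% of the 27305 genes in the table. The longer form TCACGTGA, which contains CACGTG and reads the same on both strands, occurred in 5 of the 30 against 1.18% of all genes. These 5 were LAMP1, MCOLN1, CTSA, GAA and GALNS. Stretches upstream of their RefSeq starts are printed, and those of LAMP1, MCOLN1 and GAA show how the element repeats. Stretches of FUCA1 and SMPD1, 2 strong risers whose windows lack it, are printed beside them. Capitals mark CACGTG, and each sequence runs 5′ to 3′ along the gene's strand.
LAMP1: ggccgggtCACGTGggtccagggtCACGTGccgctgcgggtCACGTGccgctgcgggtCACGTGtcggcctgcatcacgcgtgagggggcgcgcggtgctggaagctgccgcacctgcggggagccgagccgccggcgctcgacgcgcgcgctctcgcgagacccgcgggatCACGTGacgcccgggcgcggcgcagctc
MCOLN1: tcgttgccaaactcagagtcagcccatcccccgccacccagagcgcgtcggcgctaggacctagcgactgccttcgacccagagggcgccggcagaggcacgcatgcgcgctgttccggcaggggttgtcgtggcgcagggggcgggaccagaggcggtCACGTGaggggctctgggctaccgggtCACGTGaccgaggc
GAA: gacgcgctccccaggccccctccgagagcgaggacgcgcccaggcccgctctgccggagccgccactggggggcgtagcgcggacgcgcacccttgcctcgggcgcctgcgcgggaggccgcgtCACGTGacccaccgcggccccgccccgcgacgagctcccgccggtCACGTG
CTSA: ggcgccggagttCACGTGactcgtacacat
GALNS: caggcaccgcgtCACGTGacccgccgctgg
FUCA1: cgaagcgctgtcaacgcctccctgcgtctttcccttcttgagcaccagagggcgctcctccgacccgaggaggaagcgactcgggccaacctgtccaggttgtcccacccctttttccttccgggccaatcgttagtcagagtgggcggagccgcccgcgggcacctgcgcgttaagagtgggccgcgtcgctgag
SMPD1: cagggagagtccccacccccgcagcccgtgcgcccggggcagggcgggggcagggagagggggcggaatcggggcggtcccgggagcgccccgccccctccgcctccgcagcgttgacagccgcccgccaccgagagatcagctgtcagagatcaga

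The LAMP1 stretch (chr13:113297039-113297238, plus strand) and the MCOLN1 stretch (chr19:7522424-7522623, plus strand) cover the 200 bases before the start. LAMP1 carries 5 copies of CACGTG there and MCOLN1 carries 2. The GAA stretch (chr17:80101381-80101555, plus strand) also holds 2. The shorter CTSA (chr20:45891298-45891327, plus strand) and GALNS (chr16:88857104-88857133, minus strand) stretches hold 1 copy each. They are 30-base cuts around TCACGTGA, and the full windows of CTSA and GALNS hold 2 copies of CACGTG each. The FUCA1 (chr1:23868295-23868490, minus strand) and SMPD1 (chr11:6390274-6390430, plus strand) stretches hold none. Of the 10 genes with CACGTG, CD63, CTSA and ARSB rose, CTSF fell, and LAMP1, MCOLN1, CTSD, GAA, NEU1 and GALNS did not pass. Of the 20 matched genes without it, 11 rose, 1 fell and 8 did not pass. Of all tested genes 16.5% rose and 13.8% fell, and the difference between the matched genes with and without CACGTG was not tested. The related octamer TCATGTGA, searched with its reverse complement TCACATGA, lay in the windows of CD63, TPP1 and PPT1, 3 of the 30 genes against 1.24% of all genes. A match of letters is a description of the window and not a binding site, and binding was not measured.

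Among the 6 membrane proteins, CD68, CD63 and SCARB2 rose and LAMP1, LAMP2 and MCOLN1 missed the threshold (median log2 fold change 0.32). By share 50% rose and 0% fell, beside 16.5 and 13.8% of all tested genes. CD68, a heavily glycosylated late endosomal protein best known as a macrophage marker (chromosome 17, 7579467 to 7582113, plus strand, coordinates here and below from GENCODE 29 on GRCh38), was at 6.01 and 5.57 CPM under DMSO and 23.9 and 26.1 CPM under Dox. The groups lay far apart, and the edgeR log2 fold change was 2.11 (SE 0.10, adjusted p = 0.000113). CD63, a tetraspanin of late endosomes, lysosomes and secreted vesicles (chromosome 12, 55725323 to 55729707, minus strand), was at 474 and 483 CPM under DMSO and 779 and 797 CPM under Dox. Replicates lay close together in both groups, and the rise was 0.72 on the log2 scale (SE 0.07, edgeR adjusted p = 0.000946), or 1.65-fold. SCARB2, the receptor that carries glucocerebrosidase to the lysosome, was at 167 and 165 CPM under DMSO and 214 and 190 CPM under Dox (edgeR log2 fold change 0.28, SE 0.09, adjusted p = 0.0487).

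LAMP1 and LAMP2, the abundant glycoproteins that line the lysosomal membrane and are used as measures of lysosome content, did not pass. LAMP1 was at 215 and 217 CPM under DMSO and 209 and 247 CPM under Dox, and LAMP2 at 152 and 154 CPM under DMSO and 166 and 146 CPM under Dox. For both genes the control values fell between the 2 Dox values, and the 2 genes moved in opposite directions between the Dox replicates. The log2 fold changes were 0.08 (SE 0.10) for LAMP1 and 0.02 (SE 0.09) for LAMP2. MCOLN1, the calcium-releasing channel mucolipin 1, was at 4.77 and 4.67 CPM under DMSO and 5.73 and 6.42 CPM under Dox (edgeR log2 fold change 0.36, SE 0.13, adjusted p = 0.0842). SCARB2 lost its call without control replicate 1 (edgeR adjusted p = 0.395), without control replicate 2 (0.429) or with RLE or upper-quartile scaling (0.0536 and 0.0651), and CD63 did not pass a 1.5-fold threshold (0.127) or on the TPM scales. Without Dox replicate 1 LAMP1 rose by 0.18 and LAMP2 fell by 0.09, and without Dox replicate 2 LAMP1 was at -0.05 and LAMP2 at 0.11 on the log2 scale.

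CD68 overlaps the gene AC016876.2 on the same strand over 1789 bases, so reads from the shared part could be divided between them. AC016876.2 held 202 and 249 counts under DMSO and 175 and 233 under Dox. With both genes summed the values were 10.9 and 10.9 CPM under DMSO and 28.0 and 31.3 CPM under Dox, a log2 ratio of 1.45, so the sum of the 2 genes stayed higher in both Dox libraries with a smaller fold. Because CD68 is used to mark macrophages, their other markers are given beside it. Of 12 macrophage markers, AIF1, TYROBP, C1QA and C1QC were at 0 counts in all 4 libraries, and the summed level of the 12 was 0.12 and 0.15 TPM under DMSO and 0.25 and 0.52 TPM under Dox. PTPRC, the pan-leukocyte CD45, had 9 and 11 counts under DMSO and 90 and 83 under Dox and rose, and CD14, the only other marker with enough counts to test, had 10 and 16 against 14 and 24 counts and did not pass. The part of these markers' cells in the CD68 and CTSS results was not tested.

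Of the 11 proteases, 7 rose, CTSF fell and CTSD, CTSH and CTSL missed the threshold (median log2 fold change 0.38). By share 63.6% rose and 9.09% fell, beside 16.5 and 13.8% of all tested genes. The rises were largest for the cysteine cathepsins S, K and B and for the tripeptidyl peptidase TPP1. CTSB, a broad cysteine protease with endo- and exopeptidase activity (chromosome 8, 11842524 to 11869448, minus strand), was at 682 and 701 CPM under DMSO and 1417 and 1563 CPM under Dox. The 2.16-fold rise (edgeR log2 fold change 1.11, SE 0.08, adjusted p = 0.000328) was that of the most abundant protease of the list. CTSK, the collagen-degrading cathepsin of osteoclasts that fibroblasts also make (chromosome 1, 150796208 to 150808323, minus strand), was at 31.9 and 32.2 CPM under DMSO and 67.9 and 71.5 CPM under Dox (edgeR log2 fold change 1.12, SE 0.07, adjusted p = 0.000233). None of the 6 osteoclast markers, whose part in this result was not tested, reached 1 TPM in any library. Only 3 of them had enough counts to test, and none of these passed. The summed level of the 6 was 0.87 and 0.85 TPM under DMSO and 0.66 and 1.14 TPM under Dox. ITGB3, the most abundant of them, was at 8.96 and 9.11 CPM under DMSO and 6.52 and 7.58 CPM under Dox.

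CTSS, a cathepsin of antigen-presenting cells that stays active at neutral pH (chromosome 1, 150730196 to 150765957, minus strand), lies 30.2 kb from CTSK on the same strand. It had 28 and 30 counts under DMSO and 143 and 121 under Dox, or 0.67 and 0.64 against 3.34 and 2.67 CPM. Its fold was the highest of the 42 genes (edgeR log2 fold change 2.19, SE 0.22, adjusted p = 0.00106) and its level the lowest. TPP1, the serine peptidase lost in a childhood neuronal ceroid lipofuscinosis (chromosome 11, 6612763 to 6619485, minus strand), was at 25.2 and 24.1 CPM under DMSO and 70.1 and 52.0 CPM under Dox. Both Dox values were more than 2-fold above control, yet they differed from each other by 0.43 on the log2 scale, and the fitted rise was 1.31 (SE 0.14, edgeR adjusted p = 0.0015).

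Smaller rises were found for 3 further proteases. CTSA, the serine carboxypeptidase that also protects beta-galactosidase and neuraminidase 1 in a complex, went from 75.1 and 73.6 CPM to 95.9 and 108 CPM (0.45, SE 0.08, edgeR adjusted p = 0.00988). LGMN, the asparaginyl endopeptidase legumain that processes cathepsins, went from 42.6 and 43.4 CPM to 51.5 and 60.3 CPM (0.38, SE 0.09, edgeR adjusted p = 0.0272). CTSZ, a carboxypeptidase also called cathepsin X, went from 137 and 147 CPM to 164 and 186 CPM (0.30, SE 0.09, edgeR adjusted p = 0.0492). In each of these 3 the groups did not overlap. For CTSZ (147 to 164) and LGMN (43.4 to 51.5), the gap in CPM between the groups was narrower than the gap between the Dox replicates.

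CTSF, a cysteine cathepsin with a long propeptide (chromosome 11, 66563463 to 66568841, minus strand), was the protease that fell, from 54.2 and 57.7 CPM to 37.2 and 45.9 CPM (-0.43, SE 0.11, edgeR adjusted p = 0.0313). CTSD, the main lysosomal aspartic protease, was at 165 and 167 CPM under DMSO and at 139 and 189 CPM under Dox, on either side of control. CTSL, an endopeptidase close in function to CTSB, was at 120.0 and 128 CPM under DMSO and 101 and 122 CPM under Dox, and the groups overlapped. CTSH, an aminopeptidase, was at 6.37 and 7.79 CPM under DMSO and 7.93 and 9.30 CPM under Dox. Their log2 fold changes were -0.02 (SE 0.14), -0.16 (SE 0.10) and 0.28 (SE 0.15). Without control replicate 1 or control replicate 2 in turn, CTSA (edgeR adjusted p = 0.12 and 0.156), CTSF (0.0807 and 0.19), CTSZ (0.467 and 0.28) and LGMN (0.227 and 0.195) did not pass, and with the TPM fits CTSS alone did. CTSD rose by 0.17 without Dox replicate 1 and fell by 0.26 without Dox replicate 2 (edgeR adjusted p = 7.16e-06 and 3.71e-11), so its direction rested on single libraries, while CTSH rose by 0.37 without the first and CTSL fell by 0.30 without the second.

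**Figure D2:**
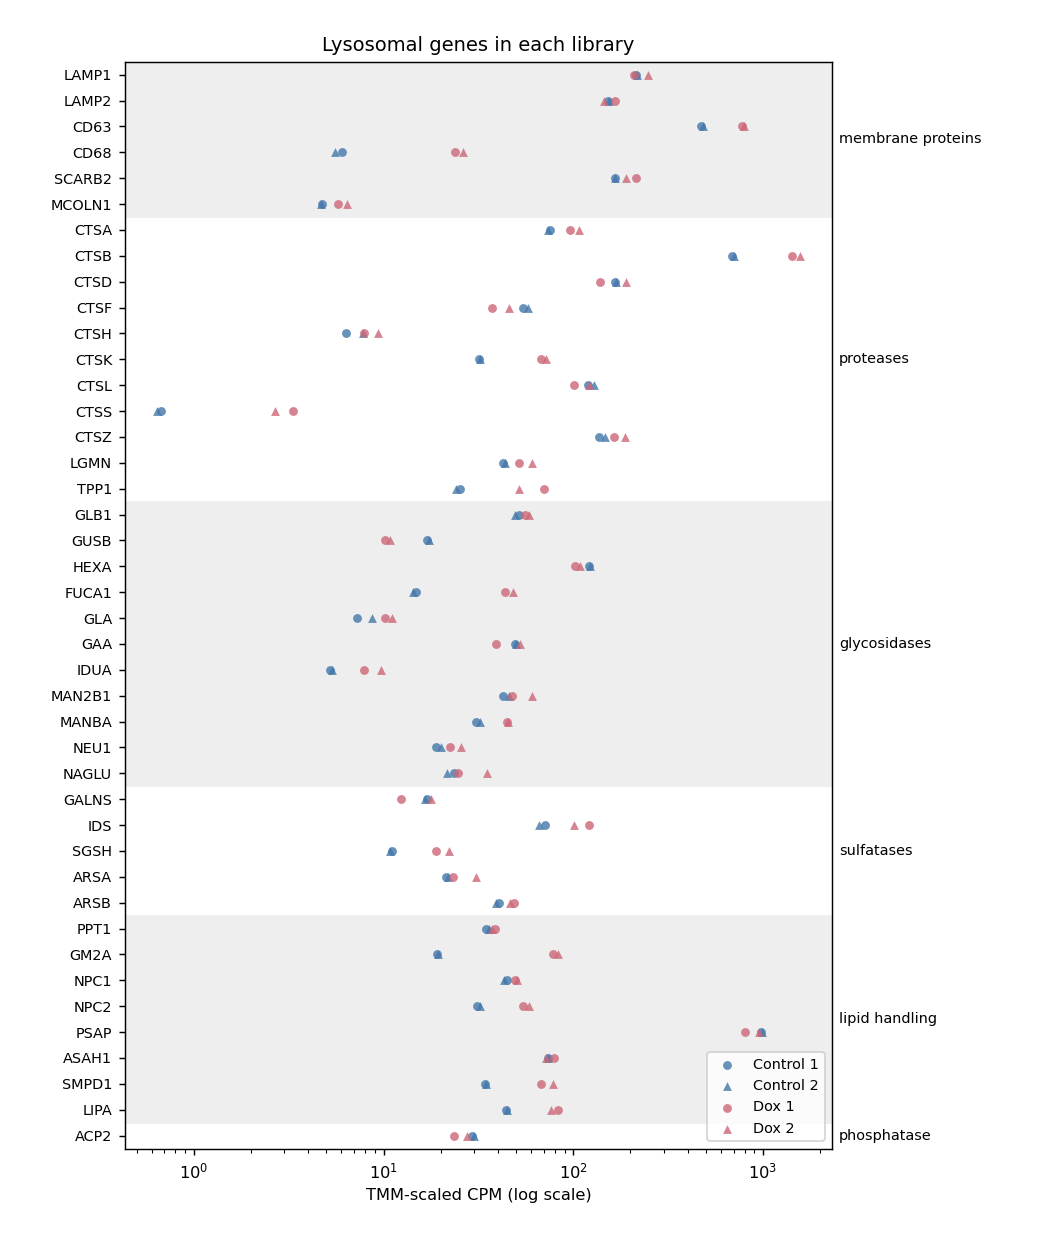
TMM-scaled CPM (log axis) of each of the 42 genes in the 2 control and 2 Dox libraries, grouped by class, 1 point per library. The pairs of points separate widely for CD68, CTSS, FUCA1 and GM2A, and the Dox points lie on either side of control for LAMP2, CTSD and GAA.

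Of the 11 glycosidases, FUCA1, IDUA and MANBA rose, GUSB fell and 7 missed the threshold (median log2 fold change 0.31). By share 27.3% rose and 9.09% fell, beside 16.5 and 13.8% of all tested genes. Among the abundant protein-coding nuclear genes 23.4% rose and 17.5% fell, so the rising share of this class was near theirs. FUCA1, the alpha-L-fucosidase that trims fucose from glycoproteins (chromosome 1, 23845077 to 23868294, minus strand), was at 14.9 and 14.3 CPM under DMSO and 43.6 and 47.9 CPM under Dox. The groups were more than 2-fold apart and the edgeR log2 fold change was 1.65 (SE 0.09, adjusted p = 0.000135). IDUA, the alpha-L-iduronidase of heparan and dermatan sulfate breakdown, was at 5.20 and 5.35 CPM under DMSO and 7.93 and 9.66 CPM under Dox (0.74, SE 0.14, edgeR adjusted p = 0.0107). MANBA, the beta-mannosidase, was at 30.7 and 32.2 CPM under DMSO and 44.6 and 45.2 CPM under Dox (0.51, SE 0.07, edgeR adjusted p = 0.00419). For both, each Dox library lay above both controls.

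GUSB, the beta-glucuronidase often used as a reference gene in PCR assays (chromosome 7, 65960684 to 65982314, minus strand), was at 16.9 and 17.5 CPM under DMSO and 10.2 and 10.9 CPM under Dox. The pairs were tight and the fall was the steepest of the 42 genes, by 0.71 on the log2 scale (SE 0.09, edgeR adjusted p = 0.00294). There are 11 genes with names of GUSB pseudogene copies (GUSBP), and RSEM may divide reads between them and GUSB. Not all of the 11 are classed as pseudogenes in the annotation, and the sums given here take in all 11. The 11 genes together were at 23.1 and 23.7 CPM under DMSO and 20.3 and 23.5 CPM under Dox. GUSB and the 11 genes summed to 40.0 and 41.2 CPM under DMSO against 30.5 and 34.3 CPM under Dox. The sum was lower in both Dox libraries, with a log2 ratio of -0.32, so the size of the GUSB change is uncertain.

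GLB1, the beta-galactosidase behind the senescence stain, was at 51.5 and 49.5 CPM under DMSO and 55.7 and 58.4 CPM under Dox. Both Dox values lay above both controls, but by little, and the gene did not pass (edgeR log2 fold change 0.18, SE 0.07, adjusted p = 0.109). HEXA, the alpha subunit of beta-hexosaminidase, was at 121 and 123 CPM under DMSO and 102 and 109 CPM under Dox (-0.22, SE 0.07, edgeR adjusted p = 0.0719). GAA, the acid alpha-glucosidase that degrades glycogen, was at 49.1 and 49.997 CPM under DMSO and 39.2 and 52.7 CPM under Dox, on either side of control (-0.11, SE 0.14).

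The other 4 glycosidases without a call all had Dox values above both controls. GLA, the alpha-galactosidase of globotriaosylceramide breakdown, was at 7.24 and 8.72 CPM against 10.2 and 11.02 CPM (0.41, SE 0.13, edgeR adjusted p = 0.0534), and NEU1, the sialidase, at 18.9 and 19.99 CPM against 22.5 and 25.6 CPM (0.31, SE 0.10, edgeR adjusted p = 0.0603). MAN2B1, the alpha-mannosidase, was at 42.8 and 45.9 CPM against 47.6 and 60.9 CPM (0.29, SE 0.12). NAGLU, the alpha-N-acetylglucosaminidase of heparan sulfate breakdown, was at 23.5 and 21.5 CPM against 24.6 and 35.2 CPM (0.41, SE 0.17). In both of the last genes most of the difference came from Dox replicate 2. Without control replicate 1 IDUA and MANBA did not pass, nor did MANBA without control replicate 2. FUCA1 alone of the 11 passed against a 1.5-fold threshold, where GUSB had an edgeR adjusted p of 0.281. FUCA1 was also the only one to pass on either TPM scale. Of the 11, 8 rose and 2 fell without Dox replicate 1, and 6 rose and 3 fell without Dox replicate 2, against 26 and 26.7%, and 27.0 and 29.1%, of all genes. GAA was at 0.08 and -0.34 in these fits.

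Of the 5 sulfatases, which remove sulfate groups from glycosaminoglycans and sulfatides, IDS, SGSH and ARSB rose and GALNS and ARSA missed the threshold (median log2 fold change 0.31). By share 60% rose and 0% fell, beside 16.5 and 13.8% of all tested genes. SGSH, the sulfamidase of heparan sulfate breakdown, was at 11.02 and 10.8 CPM under DMSO and 19.0 and 22.0 CPM under Dox (0.91, SE 0.11, edgeR adjusted p = 0.00187). IDS, the iduronate 2-sulfatase, was at 70.9 and 66.0 CPM under DMSO and 122 and 101 CPM under Dox (0.70, SE 0.11, edgeR adjusted p = 0.00524). Both genes had Dox values well clear of control. ARSB, the N-acetylgalactosamine 4-sulfatase, was at 40.7 and 39.0 CPM under DMSO and 48.6 and 46.2 CPM under Dox (0.25, SE 0.07, edgeR adjusted p = 0.0476). ARSA, the sulfatide-degrading arylsulfatase A, was at 21.4 and 21.9 CPM under DMSO and 23.1 and 30.7 CPM under Dox (0.31, SE 0.14). GALNS, the galactosamine 6-sulfatase, was at 16.9 and 16.6 CPM under DMSO and 12.4 and 17.7 CPM under Dox (-0.15, SE 0.17), so that its Dox libraries lay on either side of control. ARSB lost its call without control replicate 1 (edgeR adjusted p = 0.375), without control replicate 2 (0.514), by DESeq2 (0.103), with no low-count filter (0.123), or with RLE or upper-quartile scaling (0.0504 and 0.0643), and IDS did not pass a 1.5-fold threshold (0.384). GALNS was at 0.07 without Dox replicate 1 and fell by 0.43 without Dox replicate 2, and ARSA rose by 0.49 without Dox replicate 1.

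Of the 8 genes of lipid handling, GM2A, SMPD1, LIPA and NPC2 rose and PPT1, NPC1, PSAP and ASAH1 missed the threshold (median log2 fold change 0.51). By share 50% rose and 0% fell, beside 16.5 and 13.8% of all tested genes. GM2A, the activator protein that presents ganglioside GM2 to beta-hexosaminidase A (chromosome 5, 151212150 to 151270440, plus strand), was at 19.2 and 19.3 CPM under DMSO and 77.8 and 83.2 CPM under Dox. Replicates nearly coincided, and the 4.18-fold rise (edgeR log2 fold change 2.06, SE 0.08) had the smallest adjusted p of the 42 genes, 7.02e-05. HEXA, which encodes a subunit of the enzyme that GM2A serves, did not pass, with a log2 fold change of -0.22. SMPD1, the acid sphingomyelinase (chromosome 11, 6390431 to 6394998, plus strand), was at 34.2 and 34.5 CPM under DMSO and 67.7 and 78.5 CPM under Dox (1.09, SE 0.09, edgeR adjusted p = 0.000607). LIPA, the acid lipase that hydrolyses cholesteryl esters and triglycerides, was at 44.2 and 44.6 CPM under DMSO and 83.2 and 76.3 CPM under Dox (0.85, SE 0.08, edgeR adjusted p = 0.000782).

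The cholesterol carriers NPC2 and NPC1, which act in sequence to move cholesterol out of the lysosome, had different outcomes in the test. NPC2, the soluble carrier, was at 31.2 and 32.3 CPM under DMSO and 54.6 and 58.6 CPM under Dox (0.84, SE 0.08, edgeR adjusted p = 0.000811). NPC1, the membrane transporter, was at 44.6 and 43.3 CPM under DMSO and 49.1 and 50.5 CPM under Dox (0.18, SE 0.07, edgeR adjusted p = 0.101). The difference between the 2 genes' changes was not tested. PSAP, the precursor of the saposins that activate sphingolipid hydrolases, was at 973 and 987 CPM under DMSO and 800.1 and 956 CPM under Dox (-0.16, SE 0.10). Both of its Dox values lay below both controls, but the Dox replicates differed more from each other than the nearer one did from control. ASAH1, the acid ceramidase that acts one step after SMPD1, was at 73.5 and 73.5 CPM under DMSO and 79.6 and 71.8 CPM under Dox (0.04, SE 0.08). PPT1, the palmitoyl-protein thioesterase, was at 34.8 and 35.8 CPM under DMSO and 38.8 and 37.5 CPM under Dox (0.11, SE 0.07). All 4 calls of this class held without either control library, and without Dox replicate 2 PSAP fell by 0.29 while NPC1, PPT1 and ASAH1 rose by 0.16, 0.13 and 0.11. ACP2, the lysosomal acid phosphatase and the single member of its class, was at 29.2 and 30.1 CPM under DMSO and 23.5 and 27.6 CPM under Dox (-0.21, SE 0.10, edgeR adjusted p = 0.159), and it fell by 0.34 without Dox replicate 2.

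To compare levels between genes, TPM, which is scaled by transcript length, was expressed per 1000000 of the TPM held by protein-coding nuclear genes. This was done because those genes held 10.4 and 10.8% of the deposited TPM in the control libraries but 8.93 and 14.8% in the Dox libraries. On that scale CD63 was the highest of the 42, at 2215 ± 35.6 (SD, n = 2) in control and 3771 ± 235 (SD, n = 2) in Dox. PSAP was next in control, at 1552 ± 23.5 (SD, n = 2), ahead of CTSB at 837 ± 12.9 (SD, n = 2). In Dox that order was turned, with CTSB at 1901 ± 147 (SD, n = 2) and PSAP at 1346 ± 149 (SD, n = 2). CTSZ, CTSD and CTSL stood at 293, 269 and 264 in control and 369, 261 and 238 in Dox. CTSS was the lowest in both groups, at 0.902 and 4.0044. GM2A moved from place 38 to 24 in the order of the 42, CD68 from 39 to 27 and FUCA1 from 35 to 22.

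The 42 genes together held 7534 and 7556 of these units under DMSO and 10485 and 10811 under Dox, a ratio of 1.41. Most of the added amount lay in membrane proteins, with 2787 and 2731 against 4581 and 4240 (ratio 1.60), and in proteases, with 2023 and 2074 against 3141 and 3527 (ratio 1.63). CD63 and CTSB, the most abundant genes of these 2 classes, held most of what each class added. The mean of CD63 went from 2215 to 3771 and that of its class from 2759 to 4410. The mean of CTSB went from 837 to 1901 and that of its class from 2049 to 3334. Glycosidases summed to 576 and 567 against 615 and 674 (ratio 1.13), and sulfatases to 140 and 135 against 161 and 185 (ratio 1.26). For lipid handling the sums were 1964 and 2006 against 1951 and 2145 (ratio 1.03) and the groups overlapped, although 4 of its 8 genes rose: PSAP, which did not pass, is its most abundant gene. CD63 made up 29.7 and 28.99% of the 42 genes' TPM under DMSO and 37.5 and 33.3% under Dox, CTSB 10.99 and 11.2% against 17.1 and 18.5%, and PSAP 20.4 and 20.8% against 11.8 and 13.4%. In TPM as deposited the 42 genes summed to 781 and 814 under DMSO and 936 and 1596 under Dox, so the Dox libraries differed more from each other than the nearer one did from control.

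**Figure D3:**
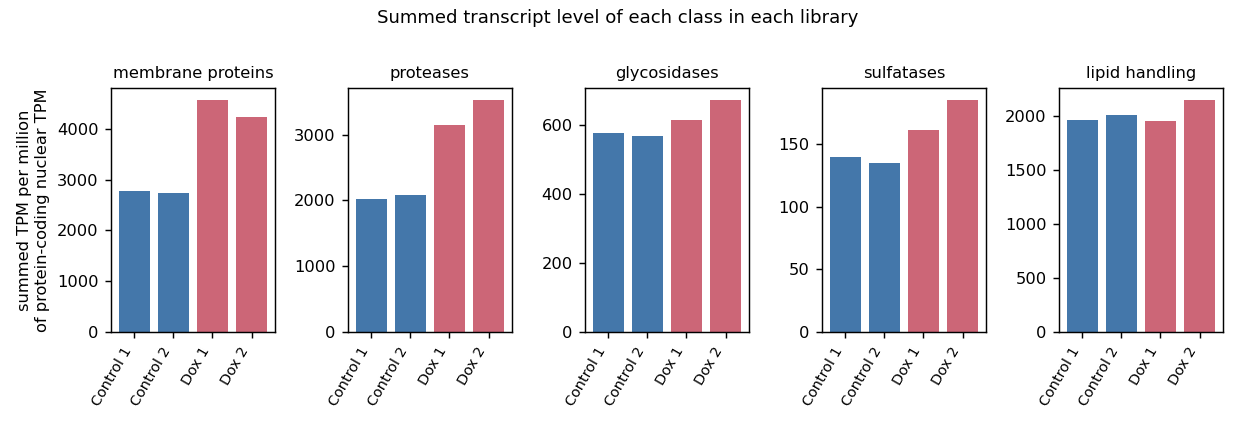
Summed TPM of each class but the phosphatase, rescaled to protein-coding nuclear genes (y axis), 1 bar per library, for control and Dox. Membrane proteins and proteases separate by group, with Dox over control ratios of 1.60 and 1.63, mostly through CD63 and CTSB. Glycosidases (1.13) and sulfatases (1.26) also separate, and lipid handling overlaps at 1.03.

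The spread between the Dox libraries followed base composition across these genes. Over the 42, the median absolute log2 difference between replicates was 0.04 in the control and 0.19 in the Dox pair, and 33 genes were higher in Dox replicate 2 than in replicate 1. Spearman's rho between that Dox difference and the GC content of the gene's transcripts was 0.788 over the 42 genes, and 0.577 over 16730 genes. The genes share their libraries and are not independent replicates. The largest gaps were those of NAGLU (0.52, 63.5% GC), GALNS (0.51, 59.9% GC) and CTSD (0.45, 63.3% GC). On the other side, the widest gaps were those of TPP1 (-0.43) and IDS (-0.28), whose GC contents of 51.9 and 51.5% were not low, and of CTSS (-0.32, 39.2% GC). The fitted Dox over control change followed GC content weakly, with rho of -0.116 over the 42 genes and -0.0311 over all, and the control pair's difference gave 0.0163 over all. With offsets for each library's GC trend 28 of the 42 genes rose and 4 fell, and over all genes 22.7% rose and 21.4% fell.

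**Figure D4:**
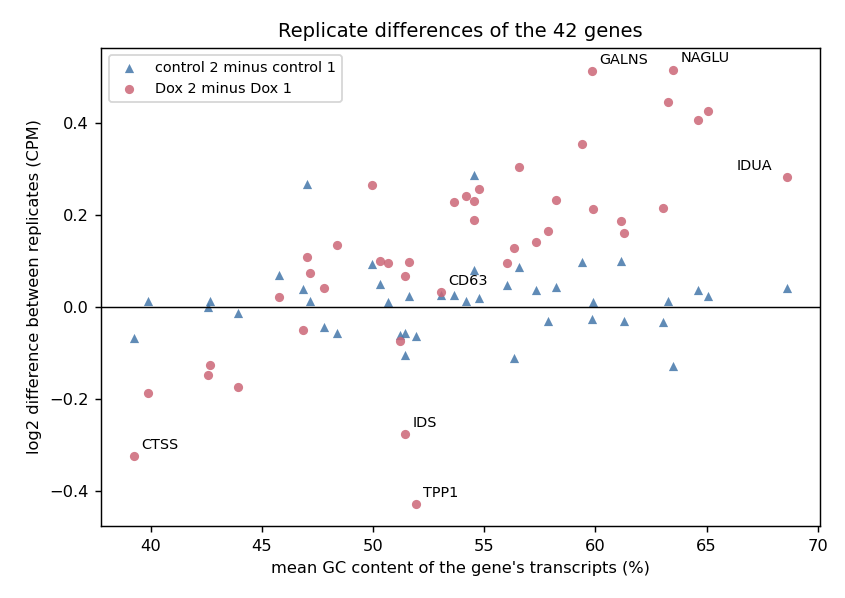
Log2 difference between the replicates of a group (y axis) against transcript GC content in percent (x axis) for the 42 genes, for the control and the Dox pair. The Dox points climb with GC content (Spearman's rho 0.788), and the control points have a median absolute difference of 0.04, with CTSH (0.29) and GLA (0.27) the farthest from 0.

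RSEM also gives an abundance-weighted transcript length, which changes when the mix of a gene's transcripts does. For CTSH it was 1590 and 1443 bases under DMSO and 1193 and 1083 bases under Dox. For IDS it was 4021 and 3594 bases under DMSO and 5350 and 4091 bases under Dox. CTSH transcripts were thus estimated as shorter and IDS transcripts as longer in both Dox libraries. For IDS the nearest values of the groups, 4091 and 4021 bases, lay much closer together than the Dox replicates did. These were the 2 of the 42 genes with groups that did not overlap and means at least 1.2-fold apart. That share is close to the 4.24% of 13419 tested protein-coding nuclear genes that met the same rule. Transcripts of a gene were not tested one by one. IDS overlaps AC244197.3, and the 2 summed to 78.1 and 72.1 CPM under DMSO and 130 and 109 CPM under Dox, a log2 ratio of 0.67 that is close to the value of IDS alone. CTSA overlaps NEURL2, LIPA overlaps IFIT2 and PPT1 overlaps CAP1 on the opposite strand, and since strand use is not stated, reads of such pairs cannot be told apart.

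The rest of the lysosomal system was read from lists of 84 further genes, of which 77 were tested. Beside 16.5 and 13.8% of all tested genes, 27 (35.1%) of the 77 rose and 4 (5.19%) fell, with a median log2 fold change of 0.19. These counts became 12 and 0 or 11 and 0 when control replicate 1 or 2 was left out, 43 and 7 or 38 and 12 when Dox replicate 1 or 2 was, 1 and 0 with limma on either TPM scale and 5 and 0 against a 1.5-fold threshold. Calls over all genes shifted in the same settings as given above, to 29.1% falling when Dox replicate 2 was left out. Other lysosomal hydrolases rose in 10 of 22 tested cases and 1 fell (median 0.39). CTSC, the dipeptidyl peptidase that activates serine proteases of granules, was at 34.5 and 35.4 CPM under DMSO and 119 and 117 CPM under Dox, with an edgeR log2 fold change of 1.76 (SE 0.07, adjusted p = 8.19e-05). ARSK, a further sulfatase, was the hydrolase that fell, from 18.8 and 19.2 CPM to 15.01 and 12.4 CPM (-0.47, SE 0.11, edgeR adjusted p = 0.0253), and it did not pass without control replicate 1 (0.108) or control replicate 2 (0.149). Of 17 other lysosomal membrane proteins 5 rose and 0 fell (median 0.07), and of 12 genes that tag and sort lysosomal enzymes 4 rose and 0 fell (median 0.14).

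Subunits of the V-ATPase, the proton pump that acidifies the lysosome, rose in 6 and fell in 3 of 18 tested cases (median 0.19), beside 16.5 and 13.8% of all genes, and with either control library left out 2 rose and 0 fell. ATP6V0A1 was at 20.8 and 21.7 CPM under DMSO and 45.4 and 44.5 CPM under Dox (1.08, SE 0.08, edgeR adjusted p = 0.000328), and ATP6V0C rose by 1.19 on the log2 scale. ATP6V0A1 and ATP6V0A2 encode alternative forms of the same subunit, and ATP6V0A2 fell by 0.37, from 27.8 and 28.9 CPM to 22.4 and 21.5 CPM. ATP6V1B2 fell by 0.43, from 119 and 112 CPM to 89.8 and 81.8 CPM. Neither fall passed without control replicate 1 (edgeR adjusted p = 0.169 for ATP6V0A2 and 0.162 for ATP6V1B2) or control replicate 2 (0.272 and 0.0954). Of 4 tested cystatins and related cathepsin inhibitors 1 rose, CSTB (0.39, edgeR adjusted p = 0.0206), named after its value was seen, and it did not pass without control replicate 1 (0.292) or control replicate 2 (0.174).

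Of the TFEB family, the transcription factors that act on many of these genes, TFEB was at 9.06 and 8.30 CPM under DMSO and 5.31 and 7.50 CPM under Dox and did not pass (-0.44, SE 0.18, edgeR adjusted p = 0.113). TFE3 was at 35.6 and 37.2 CPM under DMSO and 41.6 and 49.9 CPM under Dox (0.33, SE 0.10, edgeR adjusted p = 0.0542), and MITF had a log2 fold change of 0.11. TFE3 passed in 10 of 16 alternatives, DESeq2 among them (adjusted p = 0.0402), and without Dox replicate 2 MITF rose by 0.18. TFEB passed as lower in 4 of 16: without Dox replicate 2 (-0.71), with no low-count filter (-0.47), and with GC-trend offsets with and without the replicate block (-0.46 in both). TFEC, the family member typical of macrophages, passed edgeR's test on few reads, and limma on neither TPM scale: it had 0 and 1 counts under DMSO and 14 and 17 under Dox, which is 32.5-fold, within an exact 95% interval of 5.42 to 1330 that covers counting error only. RNA level says nothing of where these factors were in the cell.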

How the data were processed

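Total RNA from BJ fibroblasts was sequenced in 4 libraries, grouped by their titles. The submitters' processing notes name cutadapt, STAR, Picard, RSEM and hg38, without versions; for annotation release and strand use the sources used here are silent. Expected counts and TPM were deposited under those column names, per the file headers: estimated reads per gene, and a unit scaled by transcript length to 1 total per library. The deposited lengths in bases are RSEM's, per the file headers.

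Expected counts were rounded, filtered with filterByExpr (minimum count 10, minimum total 15), scaled by TMM and tested over all genes with edgeR's quasi-likelihood test with group as the only term, Benjamini-Hochberg adjustment and a threshold of 0.05. CPM values are TMM-scaled, and each SE is the size of the log2 fold change over the square root of F. Log2 fold changes in parentheses are edgeR's. Of the gene identifiers, 99.5% matched GENCODE 29 (GRCh38), which gave coordinates, biotypes and GC content. Promoter sequences are RefSeq's (GRCh38.p14). The control and the Dox replicates differed by more than sampling noise, so each library counted as 1 sample. The software was Python 3.11.15 and R 4.3.3 with DESeq2 1.42.0, edgeR 4.0.16 and limma 3.58.1.

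The 42 genes, the further gene lists, the markers, the motifs and the tests were chosen with earlier results of these data known. All 42 genes are named, and of the further lysosomal lists the 3 genes with the smallest adjusted p in each direction; CSTB, the TFEB family and the markers are named beside them. Alternatives were RLE and upper-quartile scaling, other count filters, DESeq2, limma on log2(TPM + 1) and log2(TPM + 0.1), a 1.5-fold threshold, protein-coding nuclear genes alone, GC-trend offsets, the replicate number as a block and leaving out each library.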

Additional observations from a re-analysis of the deposited data

How the results depend on the processing

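Of the 42 genes, the 20 rises became 17 to 22 with other scalings, other filters, DESeq2 or protein-coding nuclear genes alone. Over all genes tested in these settings, 10.8 to 19.3% rose and 9.85 to 17.5% fell. Limma on log2(TPM + 1) and log2(TPM + 0.1) gave 4 and 4 rises and 0 and 0 falls among the 42, 596 and 637 rises and 198 and 198 falls among all genes, and medians of 0.41 and 0.45 for the 42, where the medians of all genes were 0.06 and 0.13. Against a 1.5-fold threshold 11 rose and 0 fell among the 42, and 787 rose and 480 fell among all genes. GC-trend offsets gave 28 rises and 4 falls among the 42, and 3800 rises and 3577 falls among all. The deviations of the libraries with replicate number 1 correlated at 0.0411. This cannot tell whether the numbers pair the libraries, because the Dox deviations followed GC content and the control deviations were small. With the replicate number as a block 22 of the 42 rose and 2 fell, with 2972 rises and 2511 falls among all genes and SCARB2 and ARSB above the threshold (adjusted p = 0.0532 and 0.0605), and with that block and GC-trend offsets 29 rose and 4 fell, with 4151 rises and 4005 falls among all. Leaving out each library gave 13 to 31 rises and 1 to 9 falls among the 42, 1368 to 4654 rises and 1000 to 5017 falls among all genes, medians of 0.23 to 0.44, and ratios of the summed TPM of 1.17 to 2.00. That ratio was 1.59 as deposited, 1.41 for rescaled TPM and 1.46 without CD63. With 1 library left in a group, that library is assumed to vary like the other group, and the control pair was tight. CD68, CTSS, FUCA1 and GM2A kept their calls under all 16 alternatives. The same alternatives for the further lysosomal genes were added after the data were seen.

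Some genes without a call changed sign. LAMP2 was at -0.010 with no filter, at -0.012 with GC-trend offsets with or without the block, and between -0.085 (without Dox replicate 1) and 0.11 (without Dox replicate 2) with single libraries left out. CTSD was at 0.0056 with a 1 CPM filter, at 0.063 and 0.062 on the TPM scales and between -0.26 (without Dox replicate 2) and 0.17 (without Dox replicate 1). GAA was at 0.030 and 0.021 on the TPM scales and ranged from -0.34 to 0.075 without those libraries, GALNS at 0.0042 on the log2(TPM + 1) scale with a range of -0.43 to 0.068. ASAH1 ranged from -0.045 without Dox replicate 1 to 0.11 without Dox replicate 2, and LAMP1 from -0.046 without Dox replicate 2 to 0.18 without Dox replicate 1. The cause was not tested.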
